A study of Mus musculus with 12 samples.

Results

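The comparison described here is that of liver from Mtdh knockout (KO) mice that carried a mammary tumour with liver from KO mice that carried none. It was made across every gene with a normalized value of at least 10 in at least 3 of the 6 KO libraries. Of 22557 genes in the table, 15687 (69.54%) met that rule, and 13053 of them are protein-coding. The third highest value of the lowest gene inside the rule was 10.0011, and that of the highest gene outside it was 9.98582. The filter let in 31 genes through the tumour-bearing libraries alone and 45 through the tumour-free libraries alone.

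All animals were age-matched females, per the series' design text, which gives no age. KO_tumor livers came from Mtdh KO hosts with an allograft of Py8119, a mouse mammary tumour cell line, and KO_no_tumor livers from Mtdh KO hosts without a tumour. WT_tumor and WT_no_tumor livers came from wild-type hosts with and without the same allograft and are used here only beside the KO values. Each of the 4 groups held 3 libraries, each from a different mouse. The labels do not say how the Mtdh knockout was made, where the tumour grew, how large it was or how long it was carried. Whole frozen livers were powdered, so a library holds RNA of every cell type in the organ, and a lower number of cells of a type cannot be told apart from less RNA per cell.

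Metadherin, the product of Mtdh, is known from cancer research as a promoter of tumour growth and spread. A tumour can act on a distant liver through circulating cytokines: interleukin 6 (IL-6) works through its receptor subunit gp130 and the transcription factor STAT3 to raise acute phase plasma proteins made by hepatocytes. The nuclear receptor PPARα, which pairs with RXR on DNA, drives genes of fatty acid handling in hepatocytes, and its targets are known to be repressed during inflammation.

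The knockout label was checked first. Mtdh (ENSMUSG00000022255, chromosome 15, 34082840 to 34145771, mm39) was at 584, 436 and 627 normalized reads in the KO_no_tumor libraries and at 1063, 380 and 323 in the KO_tumor libraries. Every KO library lay below the 6 WT libraries, which ranged from 3954 to 5702. Between KO livers with and without a tumour its log2 fold change was −0.10 ± 0.35 (SE), or −0.63 without KO_tumor replicate 1, and the highest KO value was that of KO_tumor replicate 1. Alb, which encodes albumin, held 6.12% to 12.3% of all signal per library, as a liver label requires. The summed level of markers of pancreas, fat and muscle was 764 normalized reads in KO_tumor replicate 1, against 15.8 to 137 in the remaining KO livers.

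KO_tumor replicate 1 was shallow, at an estimated 12700000 reads against 25700000 to 43000000 in the other 11 libraries. One read was worth 2.47 normalized units in it and 0.65 to 1.32 in the others, and 2218 tested genes had no read in it against 35 to 510 in the other KO libraries. Across genes it correlated with the rest at 0.831 on average, where the rest reached 0.887 to 0.926. KO_no_tumor replicate 3 also stood apart: small nucleolar RNAs made up 4.84% of its signal, and 5.32% came from small nuclear RNAs. Log2 fold changes and list medians in KO are therefore given with and without KO_tumor replicate 1: where a value is followed by "then" and another, the second is that without this library. Results that turn on KO_no_tumor replicate 3 are named.

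No gene passed the limma test with Benjamini-Hochberg adjustment over all 15687 genes between KO livers with and without a tumour (0.0% called in either direction, lowest adjusted p = 0.174, of an unnamed gene model). Without KO_tumor replicate 1 the count was again 0 (lowest limma adjusted p = 0.111). With all libraries, 864 genes were higher (5.51%) and 1245 lower (7.94%) at an unadjusted p under 0.05 (13.4% in both directions), and 498 (3.17%) and 549 (3.5%) without that replicate. The 2109 genes of both directions became 1142 without KO_no_tumor replicate 1, 1047 without KO_tumor replicate 1 and 3376 without KO_tumor replicate 2. The 3 tumour-bearing libraries lay above the 3 tumour-free libraries without overlap for 1242 genes (7.92%) and below them for 1574 (10%), and the shares were 12.5% and 13.5% without KO_tumor replicate 1. With values rescaled to the same total per library, 1075 genes were higher and 839 lower at an unadjusted p under 0.05, so the surplus of lower genes turned into a surplus of higher ones. When limma gave each library a weight, 28 genes passed as higher (0.178%) and 10 as lower (0.0637%), with KO_tumor replicate 1 weighted at 0.129 and KO_tumor replicate 3 at 4.40. Values below are log2 fold changes of KO_tumor over KO_no_tumor on the log2(value + 1) scale, so changes of low genes are understated. The median over all genes was −0.07 (0.02 without KO_tumor replicate 1) with 45.9% positive and 54.1% negative, and the median standard error was 0.43.

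Cyp4a10 was the gene that passed limma when the 6 KO libraries were fitted alone (adjusted p = 0.00467). It encodes a cytochrome P450 that hydroxylates fatty acids and is a textbook PPARα target (ENSMUSG00000066072, chromosome 4, 115375461 to 115390847). It was at 10625, 9404 and 10546 normalized reads in the KO_no_tumor libraries and at 2081, 2085 and 1546 in the KO_tumor libraries. The groups were far apart and KO_tumor replicate 1 lay with the other tumour-bearing libraries. The means were 10192 ± 683 and 1904 ± 310 (SD, n = 3 libraries each), a log2 fold change of −2.43 ± 0.43, then −2.50, with a limma adjusted p of 0.198. The gene also passed limma with library weights (adjusted p = 0.00633) and without WT_tumor replicate 2 (0.0066). With KO_tumor replicate 1 left out of the 12-library fit the log2 fold change was −2.50 (limma adjusted p = 0.293).

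Among genes whose KO groups did not overlap and whose mean reached 50, Tgfbi had the smallest unadjusted p of the higher ones. It encodes a secreted matrix protein induced by TGF-β (ENSMUSG00000035493, chromosome 13, 56757336 to 56787376). Its values were 422, 602 and 693 in KO_no_tumor and 2493, 1253 and 1986 in KO_tumor livers. KO_tumor replicate 1 was the highest, and the other tumour-bearing libraries still lay above every tumour-free one. The log2 fold change was 1.71 ± 0.28 (limma adjusted p = 0.193) and 1.49 without that replicate, beside 1.44 in WT.

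Dcn, which encodes the collagen-binding proteoglycan decorin, was at 2531, 3846 and 2606 without a tumour and 6966, 5856 and 7228 with one. The 6 KO libraries split into separate ranges, with KO_tumor replicate 1 between the other tumour-bearing ones. Its log2 fold change was 1.18 ± 0.20, then 1.15 (limma adjusted p = 0.193), close to the 1.16 of WT livers, where Dcn passed the test. Clec4g, a lectin of liver sinusoidal endothelium, was at 429, 591 and 455 without and 1127, 829 and 1169 with a tumour. Here too the ranges were separate (1.08 ± 0.21, then 1.01, limma adjusted p = 0.269).

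Klf10, a zinc finger transcription factor induced by TGF-β, was at 1318, 1661 and 1728 without a tumour and at 2515, 4734 and 4069 with one. KO_tumor replicate 1 was the lowest tumour-bearing library, and without it the log2 fold change went from 1.23 ± 0.25 to 1.49 (limma adjusted p = 0.269 and 0.111). WT livers were at 1952, 1583 and 1630 without and 1418, 1638 and 2362 with a tumour, a log2 fold change of 0.04. The difference between the genotypes was 1.18 ± 0.35, which did not pass (limma adjusted p = 0.843). Prkag2 encodes a regulatory subunit of the energy sensor AMPK. It was at 293, 393 and 258 without and 1578, 580 and 949 with a tumour in KO livers. Here KO_tumor replicate 1 was the highest library. The log2 fold change was 1.62 ± 0.34, then 1.26, in KO and −0.04 in WT (limma adjusted p of the difference = 0.843). WT livers without a tumour were at 703, 548 and 491, above every KO_no_tumor library.

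Of the remaining higher genes with the smallest p, Rps21, Rps13 and Rpl10 encode ribosomal proteins and are described with that group. Armcx4 (1.98 ± 0.42, then 2.21, limma adjusted p = 0.269) and Fam171b (1.77 ± 0.38, then 1.68) complete the 10. Armcx4 was at 123, 84.2 and 67.1 without and at 254, 390 and 438 with a tumour. Both ranges lay below those of WT_tumor livers, where it was at 1306, 640 and 1799.

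**Figure D1:**
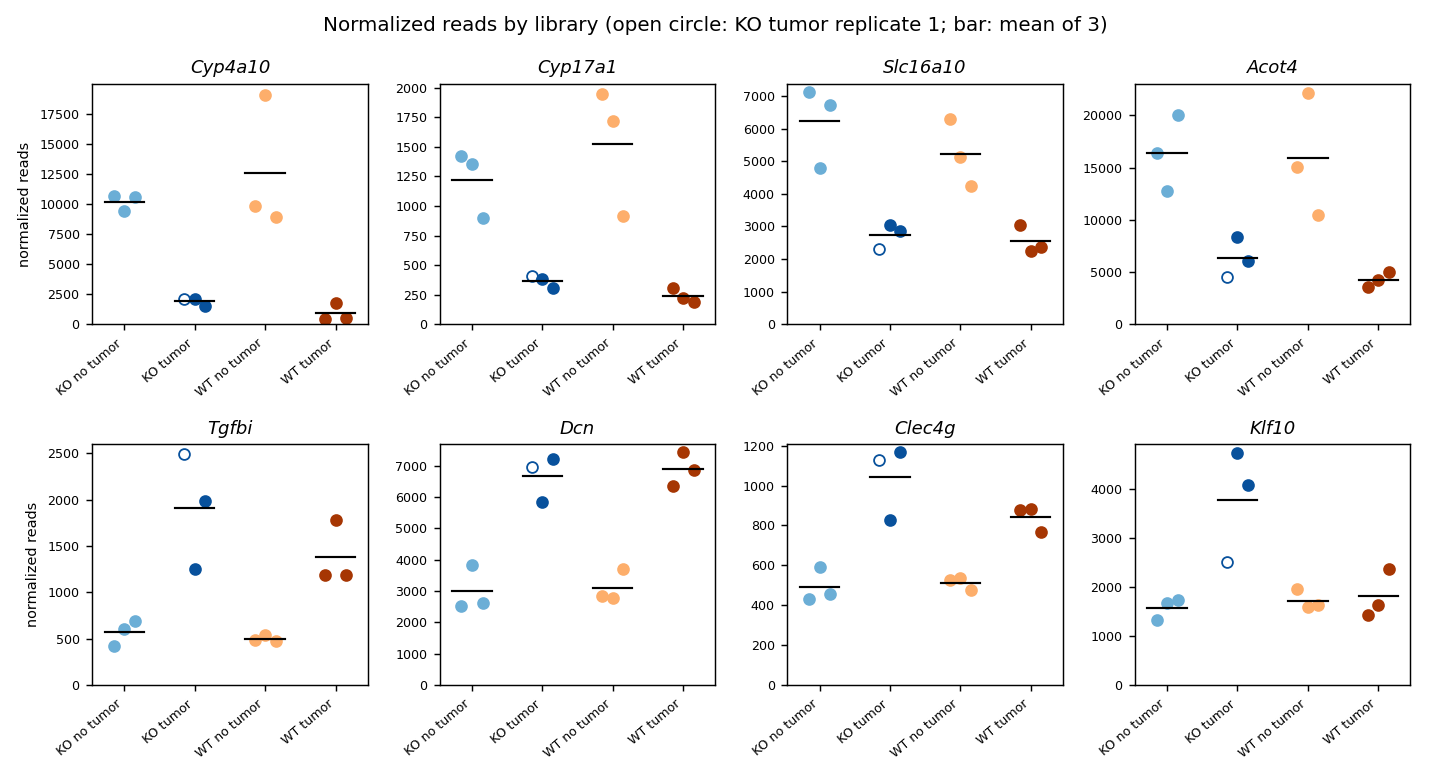
Normalized reads (vertical axis, from 0) of 8 genes in each library of the 4 groups, with a bar at the mean of 3 and KO_tumor replicate 1 as an open circle. The 3 tumour-bearing KO libraries lie apart from the 3 tumour-free KO libraries in all 8 panels, and Klf10 in WT livers shows overlapping groups.

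Cyp17a1, a steroid hydroxylase and lyase, was at 1423, 1352 and 896 in KO_no_tumor and 407, 382 and 303 in KO_tumor livers. All tumour-bearing libraries lay below all tumour-free ones, as in WT livers (−1.73 ± 0.31, then −1.81 in KO, limma adjusted p = 0.198, and −2.65 in WT, where it passed). Slc16a10, a transporter of aromatic amino acids, was at 7137, 4802 and 6725 without and at 2306, 3055 and 2870 with a tumour. Those ranges were separate as well, and the log2 fold changes of the genotypes were −1.17 ± 0.21, then −1.05, in KO and −1.03 in WT. Otc, the urea cycle enzyme ornithine transcarbamylase, was at 18486, 12845 and 13651 without and 7018, 8288 and 8703 with a tumour. Its log2 fold change of −0.89 ± 0.18, then −0.80 (limma adjusted p = 0.269) compares with −0.40 in WT.

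The other lower genes with the smallest p were Sult2a8, a sulfotransferase of the liver (−1.96 ± 0.38, then −1.74), the major urinary protein gene Mup10 (−2.21 ± 0.47, then −2.07) and Rapgef4, which encodes the cyclic AMP sensor EPAC2 (−0.93 ± 0.19, then −0.84). Sun2, of the nuclear envelope (−0.80 ± 0.17, then −0.71), and Tm9sf1 (−0.85 ± 0.18, then −0.71), a membrane protein gene, followed, together with Acot4, described with the PPARα targets. Each had a limma adjusted p of 0.269. Tm9sf1 was at −0.05 in WT livers, with values of 3058, 2938 and 3176 without and 3002, 2771 and 3118 with a tumour.

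Acute phase genes lay mostly higher in tumour-bearing KO livers, and by less than in WT livers. Of 30 tested, 26 had a positive log2 fold change, with a median of 0.80 (0.65 without KO_tumor replicate 1), beside 45.9% positive and −0.07 over all genes. In KO 0 passed limma over all genes, whereas 15 rose in WT (0.484% of all genes), where the median was 1.72. At an unadjusted p under 0.05, 13 were higher in KO (5.51% of all genes) and 1 lower (7.94%), and without KO_tumor replicate 1 these were 7 (3.17%) and 1 (3.5%). Without overlap, 8 were higher (7.92% of all genes). In the KO_no_tumor libraries the median deviation of the list from each gene's 12-library mean was −0.83, −0.48 and 0.00, and in the KO_tumor libraries 0.59, −0.35 and 0.72. KO_tumor replicate 2 thus lay among the tumour-free livers, and KO_no_tumor replicate 3 was the highest of those.

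Promoters are shown for a pair of acute phase genes whose groups did not overlap and which hold a match to the palindrome bound by STAT factors, TTCNNNGAA, in capitals. They are the 250 bases before the start of the gene in RefSeq, build GRCm38.p6, plus strand, at chr14:30886226-30886475 for Itih4 and chr5:7960222-7960471 for Steap4, and so in another build than the table's coordinates.
Itih4: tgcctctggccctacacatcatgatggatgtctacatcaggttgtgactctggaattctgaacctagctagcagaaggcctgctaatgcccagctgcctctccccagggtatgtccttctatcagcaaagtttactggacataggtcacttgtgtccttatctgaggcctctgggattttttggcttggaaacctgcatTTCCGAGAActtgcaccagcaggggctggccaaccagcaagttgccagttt
Steap4: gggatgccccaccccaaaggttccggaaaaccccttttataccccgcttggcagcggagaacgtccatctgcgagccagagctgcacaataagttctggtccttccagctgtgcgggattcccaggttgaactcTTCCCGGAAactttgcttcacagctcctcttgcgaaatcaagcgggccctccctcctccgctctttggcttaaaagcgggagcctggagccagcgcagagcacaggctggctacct
The palindrome reads the same on both strands. It was found in 6 of 24 acute phase genes with a promoter in the RefSeq table (25%). Its share was 7.41% of the tested genes with one and 8.13% of all 27025 genes of that table. A gene counted as a match if any of its promoters held one. A match describes letters in a window and not a bound site.

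Itih4 and Itih3 encode heavy chains of inter-alpha-trypsin inhibitors, which are secreted by the liver and bind hyaluronan. Itih4 was at 15740, 22396 and 28100 normalized reads in KO_no_tumor and 47941, 31673 and 52658 in KO_tumor livers. The ranges were separate, with KO_tumor replicate 2 nearest to the tumour-free libraries (1.0 ± 0.26, then 0.93, limma adjusted p = 0.316). Itih3 was at 6769, 6888 and 8058 without and 19812, 10015 and 21444 with a tumour, again with replicate 2 the lowest. Its log2 fold change was 1.17 ± 0.28, then 1.02 in KO and 2.43 in WT livers.

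Steap4, a metalloreductase induced by inflammatory cytokines and named after its values were seen, was at 2126, 2471 and 2927 without and 3262, 3454 and 5872 with a tumour in KO. The groups did not overlap, and the log2 fold change was 0.70 ± 0.22 (0.86 without KO_tumor replicate 1; limma adjusted p = 0.316 and 0.718). In WT it rose by 1.97 on the log2 scale, to 10144, 8077 and 8682. The fibrinogen chains Fga (1.13 ± 0.30, then 0.89), Fgb (0.79 ± 0.27, then 0.61) and Fgg (0.79 ± 0.28, then 0.69), which form the clot, had no overlap between the KO groups either.

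The serum amyloids, which are the most inducible genes of the group, showed little separation in KO livers. Saa1 was at 54.8, 56.4 and 439 without a tumour and at 19.7, 116 and 205 with one. Both groups covered the same range, with the highest value in KO_no_tumor replicate 3 and the lowest in KO_tumor replicate 1. The log2 fold change was −0.50 ± 1.03, and 0.47 without that replicate, while in WT livers Saa1 went from at most 34.1 to 3981, 359 and 1147 (6.03). Saa2 was at 4.73, 58.7 and 25.3 against 118, 48.1 and 98.8 in KO (2.01 ± 1.01, then 1.75). The difference of Saa1 between genotypes was −6.53 ± 1.46 and did not pass (limma adjusted p = 0.813).

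Lcn2, which encodes a protein that binds bacterial siderophores, was at 77.5, 97.8 and 642 without and at 648, 140 and 1531 with a tumour (1.60 ± 0.99, then 1.44). Orm2, an orosomucoid, was at 76.6, 224 and 620 against 683, 342 and 1223 (1.57 ± 0.74, then 1.55). In both the overlap came from KO_no_tumor replicate 3 and KO_tumor replicate 2. Haptoglobin (Hp), which binds free haemoglobin, was at 6608, 7713 and 15547 against 36052, 7354 and 26112 (1.04 ± 0.48, then 0.58), and KO_tumor replicate 2 was at the tumour-free level. Crp, C-reactive protein, which is no strong acute phase gene in mice, was lower without overlap (−0.71 ± 0.24, then −0.73, limma adjusted p = 0.318).

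**Figure D2:**
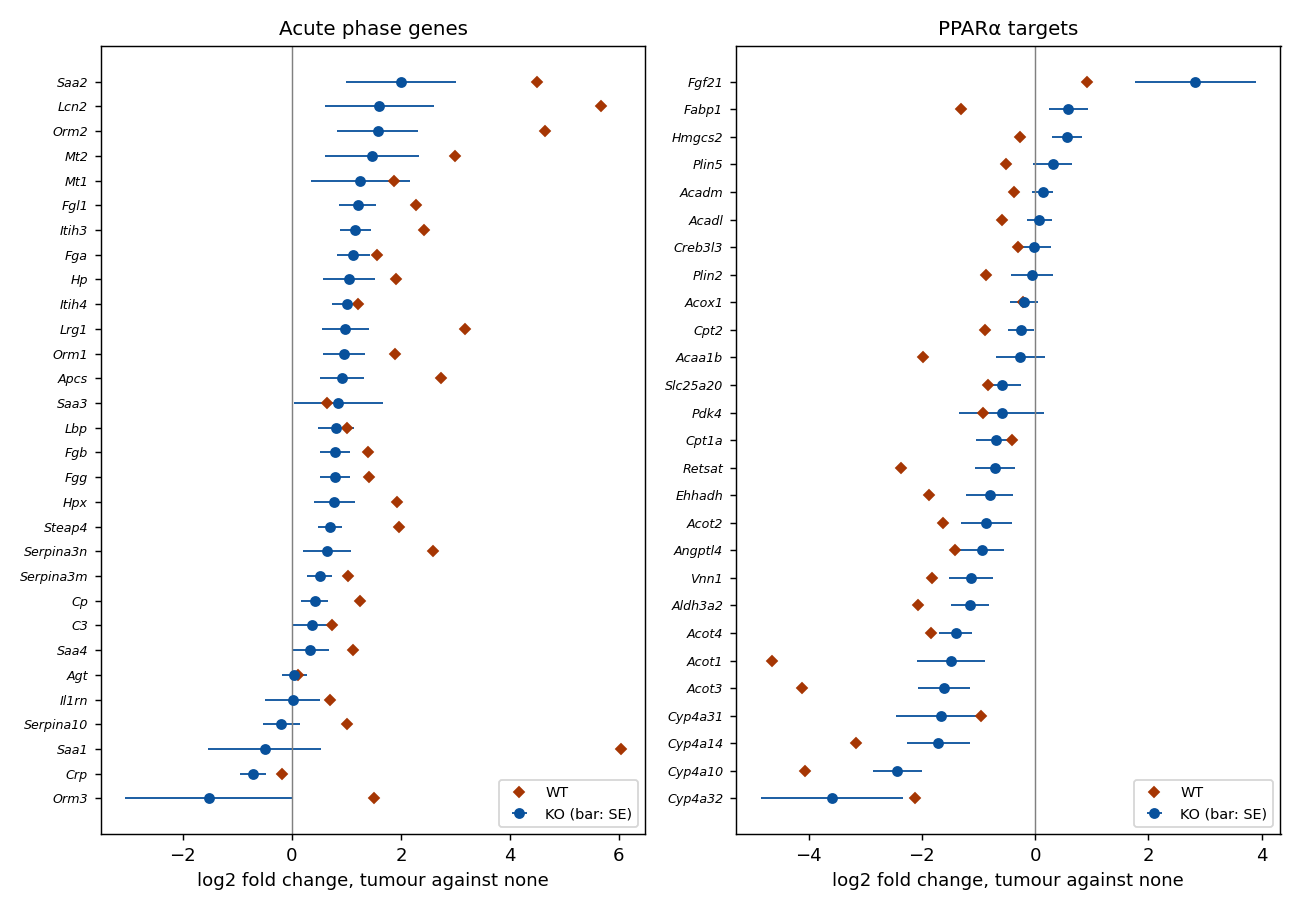
Log2 fold change with a tumour (horizontal axis) of each tested acute phase gene (left, 30) and PPARα target (right, 27), in KO with its standard error (blue) and in WT (brown diamonds). In KO 26 of 30 acute phase genes lie right of 0 and 21 of 27 PPARα targets left of it, mostly nearer to 0 than the WT points.

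Of 19 genes of IL-6 and IL-1 signalling 15 were positive, at a median of 0.47 (0.46 without KO_tumor replicate 1; 0.98 in WT). The unadjusted p was under 0.05 for 8 higher members (5.51% of all genes) and 1 lower, and for 5 (3.17%) and 1 without that library. Il6st, the gp130 subunit shared by receptors of the IL-6 family, was at 8911, 8825 and 9526 without and 11606, 12233 and 13954 with a tumour. The spread within each group was small and the ranges were apart (0.47 ± 0.17, then 0.52, limma adjusted p = 0.333). Tnfrsf1a, the main receptor of tumour necrosis factor, was at 938, 1118 and 1481 against 4473, 1658 and 2724 (1.23 ± 0.30, then 0.88, limma adjusted p = 0.316).

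Socs3, the feedback inhibitor of gp130 signalling, was at 116, 134 and 210 without and 182, 298 and 430 with a tumour. The shallow KO_tumor replicate 1 fell within the tumour-free range, and the log2 fold change was 0.94 ± 0.39 with it and 1.26 without it (2.69 in WT). Cebpd, an inflammatory transcription factor, was at 16.1, 45.1 and 15.8 against 46.8, 129 and 151 (2.05 ± 0.63, then 2.57, limma adjusted p = 0.316). Bcl3, a cofactor of NF-κB, was at 162, 130 and 151 against 1110, 250 and 287, so that its log2 fold change of 1.54 was 0.86 without KO_tumor replicate 1. Nfkbiz, another NF-κB cofactor, was the member with a lower value at an unadjusted p under 0.05 (−1.12). Hamp, which encodes the iron hormone hepcidin and is raised by IL-6, was at 0.49 ± 1.5, and at −0.00 without KO_tumor replicate 1.

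Complement and coagulation genes had positive medians of smaller size. Of 26 tested complement genes 26 were positive, with a median of 0.43, and 23 were positive with a median of 0.31 without KO_tumor replicate 1. In WT 22 were positive, with a median of 0.72. Masp2, a serine protease that starts the lectin pathway, was at 1547, 1625 and 1690 without and at 3903, 2050 and 2820 with a tumour (0.80 ± 0.21, then 0.57, limma adjusted p = 0.316). Cfi, which cleaves activated complement (0.69 ± 0.22, then 0.50), and C1s1, a protease of the classical pathway (0.58 ± 0.19, then 0.43), also had separate ranges. C3, the central component, did not (0.37 ± 0.36, then 0.20). The member with the highest value, C1qa (0.92 ± 0.50, then 0.37), is a macrophage product that is also on the Kupffer cell list and was named after its values were seen. Among 28 coagulation genes and serpins, 22 were positive and the median was 0.27 (0.15 without KO_tumor replicate 1, and 0.41 in WT). At an unadjusted limma p under 0.05, 7 were higher in KO (5.51% of all genes), against 2 (3.17%) without that library.

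Of 24 genes of endoplasmic reticulum (ER) stress and the unfolded protein response 16 were positive, at a median of 0.22 (0.20 without KO_tumor replicate 1). In WT the median was 0.67, and 4 rose by limma (0.484% of all genes). Hspa5, the ER chaperone BiP, was at 5799, 8716 and 7052 without and 13690, 10254 and 10291 with a tumour in KO (0.67 ± 0.22, then 0.53, limma adjusted p = 0.316). Manf, a secreted ER stress protein, was at 359, 678 and 996 against 1923, 1074 and 1089 (1.07 ± 0.33, then 0.79). The ranges of both were apart. Hsp90b1, an abundant ER chaperone, was at 22950, 19015 and 22197 against 18244, 18986 and 20388, and overlapped (−0.15 ± 0.18, then −0.12). Sdf2l1, an ER chaperone cofactor, was at 879, 743 and 504 against 316, 728 and 456 in KO (−0.55 ± 0.39, then −0.26) while it rose by 2.12 in WT. That difference of −2.67 ± 0.55 did not pass (limma adjusted p = 0.763).

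Immediate early genes, which answer growth factors and stress within a short time and can also respond to handling of tissue, were positive in 15 of 19 cases. Their median was 0.61, also without KO_tumor replicate 1. In WT livers 17 of them were positive and the median was 0.91. Dusp1, a phosphatase of MAP kinases, was at 432, 519 and 120 without and at 974, 2033 and 1453 with a tumour. The ranges were apart, with KO_no_tumor replicate 3 the lowest library. The log2 fold change was 2.24 ± 0.49, then 2.52, in KO (limma adjusted p = 0.269) and −0.12 in WT livers. Jund was at 217, 278 and 274 against 1447, 409 and 288, and its 1.12 was 0.43 without KO_tumor replicate 1.

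PPARα targets lay mostly lower in tumour-bearing KO livers, again by less than in WT. Of 27 tested, 21 were negative with a median of −0.69 (−0.70 without KO_tumor replicate 1), beside a median of −0.07 over all genes. In WT the median was −1.31, and 8 fell by limma (0.28% of all genes). In KO the unadjusted limma p was under 0.05 for 9 lower members (7.94% of all genes) and 2 higher ones (5.51%). Without KO_tumor replicate 1 these were 8 (3.5%) and 0 (3.17%). Without overlap, 10 were lower (10% of all genes). The list's median deviation was 0.35, 0.55 and 0.80 in KO_no_tumor and 0.02, 0.30 and −0.23 in KO_tumor libraries, which do not overlap. The median reached −0.42 without KO_tumor replicate 3 and −0.91 without KO_tumor replicate 2.

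Promoters of a pair of these targets are shown, since PPARα with RXR binds a direct repeat of the nuclear receptor core AGGTCA. In Acot4 the capitals mark that core on the minus strand, and in Fabp1 a direct repeat of AGGNCA with 1 base between the copies (a DR1 element), also on the minus strand. Both are the 250 bases before the RefSeq start in GRCm38.p6, plus strand, at chr12:84038129-84038378 and chr6:71199629-71199878.
Acot4: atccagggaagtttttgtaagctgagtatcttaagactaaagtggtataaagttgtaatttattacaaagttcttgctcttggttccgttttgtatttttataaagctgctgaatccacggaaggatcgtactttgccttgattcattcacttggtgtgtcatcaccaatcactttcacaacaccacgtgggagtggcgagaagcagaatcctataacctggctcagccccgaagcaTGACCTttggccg
Fabp1: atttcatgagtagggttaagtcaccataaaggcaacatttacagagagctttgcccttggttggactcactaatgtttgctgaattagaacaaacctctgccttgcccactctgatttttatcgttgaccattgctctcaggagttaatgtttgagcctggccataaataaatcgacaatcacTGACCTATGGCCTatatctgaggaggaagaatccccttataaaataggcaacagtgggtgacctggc
On either strand, AGGTCA was found in 7 of 20 PPARα targets with a promoter in the RefSeq table (35%) and in 8 of 24 acute phase genes (33.33%). Its share was 13.55% of tested genes with a promoter and 15.76% of all genes in the RefSeq table. The direct repeat was found in 1 of 20 targets, Fabp1, and in 0.3996% of all genes in the RefSeq table.

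Acot4, an acyl-CoA thioesterase of peroxisomes, was at 16372, 12752 and 20039 normalized reads without a tumour and at 4504, 8304 and 6089 with one. Every tumour-bearing library lay below every tumour-free library (−1.40 ± 0.29, limma adjusted p = 0.269; −1.18 without KO_tumor replicate 1). Acot3, a near neighbour in the same gene cluster, was at 6188, 8297 and 14228 against 1902, 4288 and 3154. Its log2 fold change was −1.61 ± 0.46, then −1.29, in KO and −4.11 in WT livers, where values were 249, 859 and 448 with a tumour. The Acot genes are close copies, and reads shared among them could have been split by the counting.

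Acot1, the cytosolic member, had KO_tumor values of 417, 175 and 100 against 346, 713 and 658. Here the shallow replicate 1 was the library that overlapped the tumour-free range, and the log2 fold change was −1.49 ± 0.60 with it and −2.04 without it (−4.64 in WT). Cyp4a14, a further fatty acid hydroxylase, was at 21335, 21491 and 22699 against 4261, 11301 and 6127 (−1.71 ± 0.56, then −1.39, limma adjusted p = 0.316). Those ranges were apart, and KO_tumor replicate 2 was nearest to the tumour-free level.

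Some targets did not follow. Fabp1, the fatty acid binding protein of hepatocytes, was at 5189, 7170 and 8864 without and 12186, 11421 and 8072 with a tumour (0.59 ± 0.35, then 0.47), while WT livers gave −1.31. The difference of 1.90 ± 0.49 did not pass (limma adjusted p = 0.843). Fgf21, a hormone secreted by the liver, was named after its values were seen: it was at 18.0, 306 and 101 against 1095, 521 and 375, with a log2 fold change of 2.83 ± 1.06, then 2.40 (limma adjusted p = 0.335). Ppara itself was at −0.39 ± 0.33, then −0.37 and Rxra at 0.06 ± 0.24, the second turning to −0.01 without KO_tumor replicate 1.

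Of 30 fatty acid oxidation genes 21 were negative, and the median was −0.17 (−0.23 without KO_tumor replicate 1), against −0.50 in WT. Hadha and Hadhb, the subunits of the mitochondrial trifunctional protein, were at −0.48 ± 0.18, then −0.36, and −0.45 ± 0.19, then −0.37, close to −0.50 and −0.50 in WT. Hadha was at 5225, 4821 and 5840 without and 3225, 3876 and 4376 with a tumour, with no overlap. Cpt1a, which admits long fatty acids to mitochondria, was at −0.69 ± 0.36, then −0.74.

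Lipogenic genes were spread around 0 in KO livers. Of 22 tested, 14 were positive with a median of 0.20 (0.12 without KO_tumor replicate 1), and 0 had an unadjusted p under 0.05 in either direction in limma (1 lower without that library). In WT the median was −0.58 with 2 positive. Fasn, fatty acid synthase, was at 107120, 143240 and 79385 without and 247670, 180290 and 129700 with a tumour, overlapping in KO_tumor replicate 3 (0.75 ± 0.69, then 0.52). Srebf1, which encodes their transcription factor SREBP-1, was at 0.22 ± 0.40 and turned to −0.06 without KO_tumor replicate 1 and KO_no_tumor replicate 3. Me1, malic enzyme, which supplies NADPH for that synthesis, was at 48758, 60978 and 50295 against 44877, 82497 and 45145 (0.05 ± 0.41, then 0.20), beside −1.85 in WT. Of 23 cholesterol synthesis genes 19 were positive, at a median of 0.40 (0.24 without KO_tumor replicate 1), such as Fdft1, squalene synthase (0.74 ± 0.28, and 0.45 without that library).

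Genes of bile acids and lipoproteins were mixed. Of 21 bile acid genes 13 were negative, at a median of −0.13 that was −0.02 without KO_tumor replicate 1 and 0.06 with quantile normalization. Akr1d1, a reductase of bile acid synthesis, was at 9526, 8022 and 8842 without and 5084, 5035 and 5669 with a tumour. The spread was small and the ranges were apart (−0.74 ± 0.17, then −0.72, limma adjusted p = 0.316). Cyp7a1, the rate-limiting enzyme of the pathway, was at −0.38 ± 0.48, then −0.46. Apoc4, a lipoprotein component, was at 9034, 4857 and 7881 against 3561, 3225 and 4240 (−0.94 ± 0.23, then −0.92), while WT gave 0.14. Apoe, a ligand of lipoprotein receptors, was at 10911, 13471 and 12504 against 47250, 15897 and 21140, and its 1.04 was 0.58 without KO_tumor replicate 1.

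Major urinary proteins, lipocalins secreted by the liver under growth hormone control, lay lower. Of 18 tested, 16 were negative with a median of −1.46 (−1.20 without KO_tumor replicate 1; −1.74 in WT). These genes are near-identical copies, so the split of reads among them is uncertain. Mup10 was at 3892, 1457 and 4444 without and at 520, 715 and 680 with a tumour. Mup22 was at 82711, 37690 and 47926 against 16928, 28770 and 24177 (−1.22 ± 0.52, then −1.01). Both had separate ranges. The highest tumour-free library was KO_no_tumor replicate 3 for Mup10 and replicate 1 for Mup22, and the lowest was replicate 2 for both. Igf1, the main growth factor released under growth hormone, was at 52568, 24380 and 41418 against 18195, 21569 and 23331 (−0.85 ± 0.30, then −0.74, limma adjusted p = 0.331). Igfbp1, which binds insulin-like growth factors, was at 563, 1668 and 2119 against 5508, 3893 and 6250 (2.02 ± 0.63, then 1.97, limma adjusted p = 0.316).

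Of 27 drug-metabolising P450 genes 18 were negative, at a median of −0.15 (−0.11 with 12 positive without KO_tumor replicate 1, and −0.48 in WT). The median was 0.07 with library weights. At an unadjusted p under 0.05, 5 were lower (7.94% of all genes), against 2 (3.5%) without that replicate. Cyp3a25 was at 53981, 27920 and 42089 without and 9775, 23139 and 15250 with a tumour (−1.40 ± 0.34, then −1.09, limma adjusted p = 0.316). Nr1i2, the xenobiotic receptor PXR, was at 1487, 941 and 1254 against 698, 931 and 729 (−0.63 ± 0.24, then −0.55). Neither pair of ranges overlapped, although 2 libraries of Nr1i2 nearly met at 931 and 941. Of 34 genes of amino acid breakdown and the urea cycle 19 were positive, at a median of 0.05, and without KO_tumor replicate 1 the direction turned, with 11 positive and a median of −0.17. The unadjusted p was under 0.05 for 4 lower members (7.94% of all genes), and for 5 (3.5%) without that library. Cps1, the first enzyme of the urea cycle, was at 224880, 96510 and 129420 against 66793, 62071 and 66668 (−1.12 ± 0.36, then −1.13, limma adjusted p = 0.316).

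**Figure D3:**
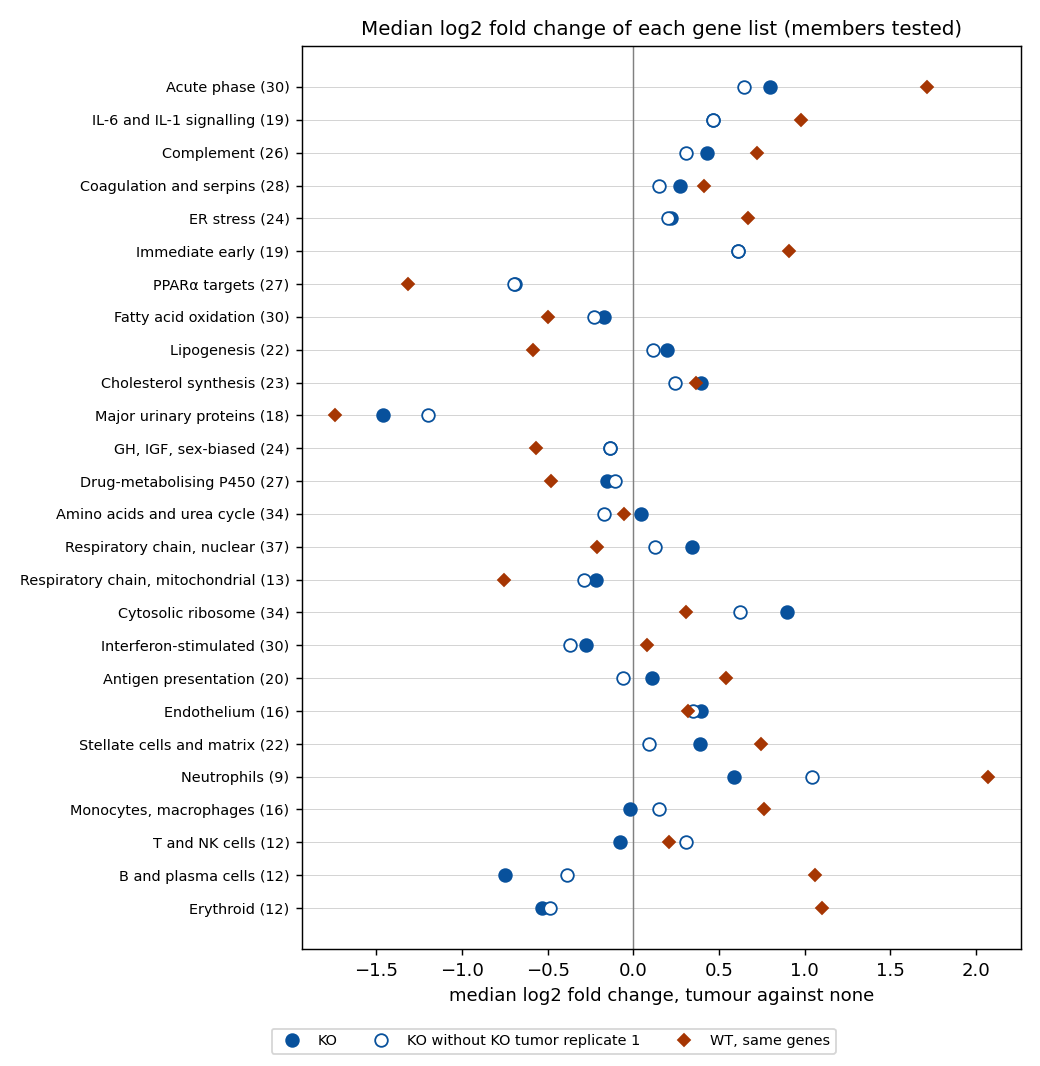
Median log2 fold change with a tumour (horizontal axis) of each gene list, with the number of members tested in brackets, in KO (filled circles), in KO without KO_tumor replicate 1 (open circles) and in WT (diamonds). Acute phase genes lie at 0.80 in KO and 1.72 in WT, PPARα targets at −0.69 and −1.31, and cytosolic ribosomal proteins at 0.89 and 0.31.

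Cytosolic ribosomal protein genes were the list with the most members at an unadjusted p under 0.05 relative to its size among those described here: 23 of 34 were higher (5.51% of all genes) and 1 lower (7.94%), and 23 were higher without overlap (7.92%). The median was 0.89, 0.62 without KO_tumor replicate 1 and 0.31 in WT, and 18 members were higher at an unadjusted p under 0.05 without that library (3.17% of all genes). Rpl10, of the large subunit, was at 1650, 2626 and 1846 without and at 7797, 3800 and 5046 with a tumour. KO_tumor replicate 1 was the highest. The same held for Rps13 (150, 276 and 251 against 1696, 587 and 770) and Rps21 (153, 294 and 125 against 1220, 546 and 579). Rps13 and Rps21 were not among the 34 listed genes, which are only part of the ribosomal protein genes. They were named for their small p among all higher genes. The log2 fold changes of Rpl10, Rps13 and Rps21 were 1.41 ± 0.30, 2.06 ± 0.43 and 2.03 ± 0.42, and 1.13, 1.62 and 1.65 without that library. Rpl13 lay on the other side (−0.69 ± 0.46, then −0.76), with separate ranges. Ribosomal protein genes have many processed copies in the genome, so their counts can include reads of such copies.

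The list's median deviation was −0.47, −0.11 and −0.06 in KO_no_tumor and 1.15, 0.32 and 0.62 in KO_tumor libraries. Protein-coding genes in the shortest range of transcript lengths, up to 2709 nucleotides, had a median of 0.17, those of 2710 to 4375 a median of 0.01 and longer ones a median of −0.16. Without KO_tumor replicate 1 these were 0.16, 0.04 and −0.08, and in WT 0.05, 0.02 and −0.06. Spearman's correlation of length with the log2 fold change, across 13036 genes that are not independent replicates, was −0.20 in KO with and without that library and −0.08 in WT. The part of transcript length in the ribosomal result was not tested.

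Of 37 nuclear genes of the respiratory chain 27 were positive, at a median of 0.34, which was 0.13 without KO_tumor replicate 1 and −0.21 in WT. Uqcrq, a small subunit of complex III, was at 455, 663 and 766 without and at 1963, 1160 and 1389 with a tumour (1.26 ± 0.32, then 1.05). Uqcrc2, a core subunit of the same complex, was at 6581, 5132 and 6319 against 3058, 4201 and 3734 (−0.72 ± 0.18, then −0.59). Both had separate ranges in opposite directions and a limma adjusted p of 0.316. Of 13 mitochondrially encoded genes 12 were negative, at a median of −0.22 (−0.29 without KO_tumor replicate 1), led by mt-Nd6 (−1.23 ± 0.32, then −1.09). That median turned on KO_no_tumor replicate 3: it was −0.02 without this library, −0.40 without KO_no_tumor replicate 2 and −0.75 in WT. The list's median deviation was 0.07, −0.22 and 0.49 in KO_no_tumor and 0.05, −0.14 and −0.22 in KO_tumor libraries, which overlap.

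Small RNAs of the nucleus were lower on average. Of 197 tested small nucleolar RNA genes 16 were positive, with a median of −1.10 and of −0.75 without KO_tumor replicate 1. The 32 small nuclear RNA genes had a median of −1.38 (−0.51). Both classes were highest in KO_no_tumor replicate 3 as a share of signal, and KO_tumor replicate 1 had the lowest shares, 0.259% and 0.374%. Long non-coding RNA genes had a median of −0.55 that became 0.05 without KO_tumor replicate 1.

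Endothelial markers lay slightly above in all KO livers with a tumour. Of 16 tested, 16 were positive with a median of 0.39 (0.35 without KO_tumor replicate 1, with 15 positive, and 0.32 in WT), and 10 were higher without overlap, against 7.92% of all genes. The list's median deviation was −0.21, −0.09 and −0.19 in KO_no_tumor and 0.46, 0.21 and 0.30 in KO_tumor libraries. Tek, the angiopoietin receptor, was at 270, 408 and 271 against 718, 581 and 448 (0.88 ± 0.26, then 0.72, limma adjusted p = 0.316). Pecam1, the adhesion molecule CD31, was at 1973, 2293 and 2528 against 9256, 2935 and 3276. The value of KO_tumor replicate 1 stood far above the others, and its 0.99 was 0.46 without that library.

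Of 22 stellate cell and matrix genes 18 were positive, at a median of 0.39, but 0.09 without KO_tumor replicate 1, whose deviation was 0.71 against −0.23 and 0.05 in the other tumour-bearing libraries. Beside Dcn, Lum, the proteoglycan lumican (264, 354 and 224 against 1033, 498 and 740), and Pdgfrb, the receptor of platelet-derived growth factor on stellate cells (184, 247 and 214 against 917, 427 and 446), had separate ranges. Their log2 fold changes were 1.39 ± 0.32, then 1.14, and 1.38 ± 0.32, then 1.03 (limma adjusted p = 0.316). Col3a1, a fibrillar collagen, did not follow: it was at 1369, 1644 and 1664 without and 1881, 968 and 1262 with a tumour (−0.23 ± 0.25, then −0.49), whereas it rose by 1.5 in WT. The difference of −1.74 ± 0.35 did not pass (limma adjusted p = 0.763).

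**Figure D4:**
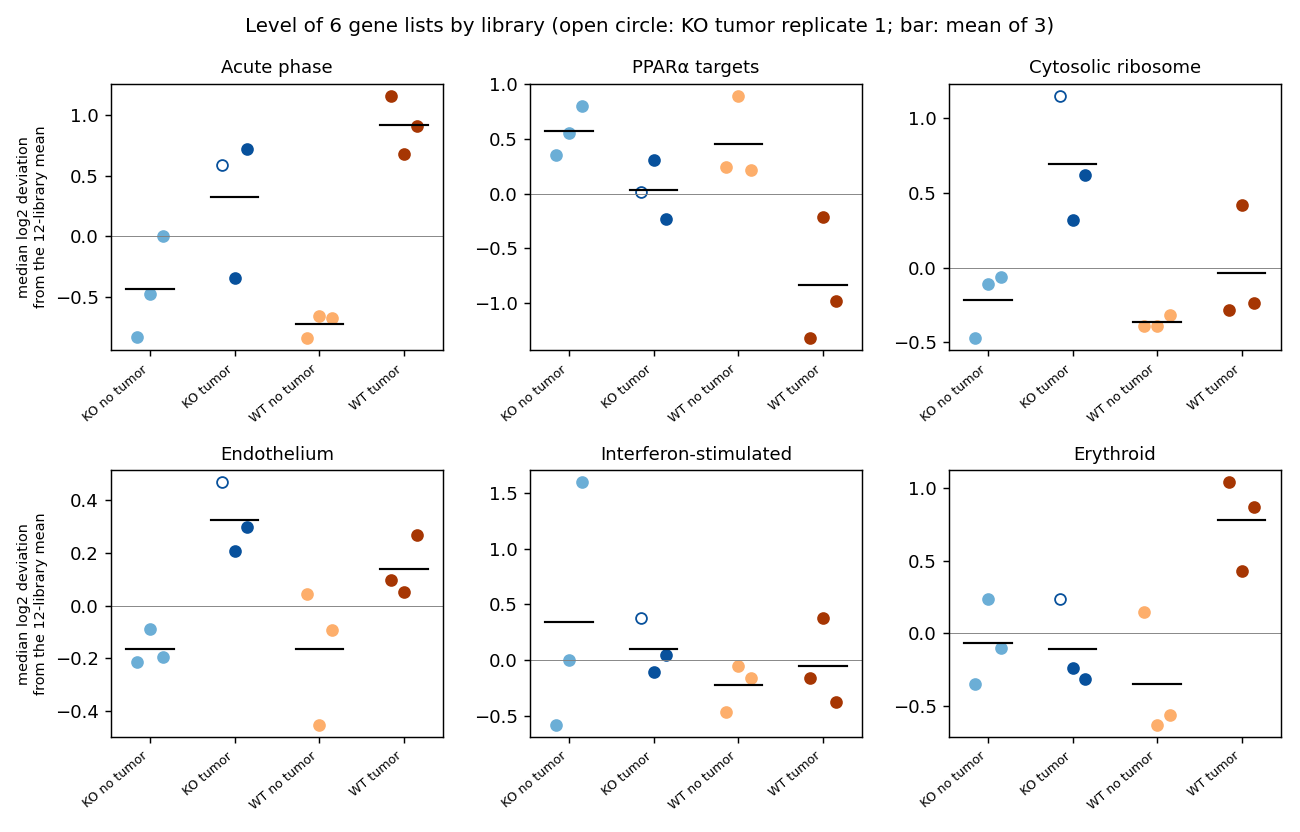
Median deviation of 6 gene lists from each gene's 12-library mean on the log2 scale (vertical axis) in every library, with a bar at the mean of 3 and KO_tumor replicate 1 as an open circle. Ribosomal and endothelial lists separate KO livers with and without a tumour, PPARα targets do so in the other direction, and interferon-stimulated genes stand at 1.60 in KO_no_tumor replicate 3.

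The summed level of markers of blood and immune cells in the KO libraries was 19921 to 26908 normalized reads for Kupffer cells, 6047 to 11274 for monocytes and macrophages, 4391 to 13236 for erythroid cells and 241 to 755 for T and NK cells. Of 19 neutrophil markers 9 were tested, 6 positive with a median of 0.59 (1.04 without KO_tumor replicate 1; 2.07 in WT). That median turned to −0.58 without KO_tumor replicate 3. The list's deviation was −0.42, −0.32 and −0.14 in KO_no_tumor livers, −1.30 in KO_tumor replicate 1 and 0.18 and 1.06 in the other tumour-bearing livers. S100a8, a calcium-binding protein of neutrophils, was at 22.7, 8.27 and 0 without and 0, 13.7 and 50.01 with a tumour (0.59 ± 1.61, then 2.18). Mmp9, a gelatinase, was at 11.3, 36.1 and 0 against 143, 40.3 and 86.9 (3.39 ± 1.17, then 2.97, limma adjusted p = 0.329). Clec4e, a lectin receptor of myeloid cells, was at 28.4, 13.5 and 51.3 against 0, 3.25 and 7.69, lower without overlap (−3.08 ± 1.13, then −2.21, limma adjusted p = 0.333). Granulocyte precursor markers had 0 members tested of 10 found.

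T and NK cell markers had 5 of 12 tested members positive with a median of −0.08 (0.31 without KO_tumor replicate 1). Cd8a, of cytotoxic T cells, was at 31.2, 40.6 and 48.7 without and at 81.4, 22.1 and 11.5 with a tumour. The 81.4 is that of KO_tumor replicate 1, and the log2 fold change of −0.49 ± 1.21 was −1.25 without it. Cd3e, of the T cell receptor complex, was at 0.945, 16.5 and 40.8 against 143, 57.2 and 25.4 (2.43 ± 1.08, then 1.80). B and plasma cell markers had 10 of 12 negative with a median of −0.75 (−0.39 without that library; 1.06 in WT), and erythroid genes 9 of 12 negative with a median of −0.54 (−0.48 without it; 1.10 in WT). Monocyte and macrophage markers had a median of −0.02 with 8 of 16 positive (0.15 with 10 positive without that library), and Kupffer cell markers 0.08 with 8 of 14 positive (0.15 with 10 positive).

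Markers of mammary tumour epithelium had 7 of 12 tested members positive with a median of 0.19, and 4 positive with −0.27 without KO_tumor replicate 1. Several of these are also expressed in bile ducts or hepatocytes. Their summed level was 10798 normalized reads in KO_tumor replicate 1, 4466 and 5004 in the other tumour-bearing KO livers and 4258 to 4842 in the tumour-free ones. In KO_tumor replicate 1 the markers of other tissues were high as well: Plin1, of fat, was at 182 against 4.55 and 24.9 in the other tumour-bearing livers, Myh11, of smooth muscle, at 365 against 91.7 and 32.3, and Cela1, of pancreas, at 180 against 20.8 and 53.9. Of 14 listed, 7 were found and 4 tested, with a median of 2.01 with that library and 1.13 without it. Their part in the results above was not tested.

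Of 30 interferon-stimulated genes 20 were negative, at a median of −0.28 (−0.37 without KO_tumor replicate 1). Without KO_no_tumor replicate 3 the median turned to 0.26. The list's deviation was −0.58, 0.00 and 1.60 in KO_no_tumor and 0.38, −0.11 and 0.04 in KO_tumor livers. Gbp2, an interferon-induced GTPase, was at 225, 390 and 2878 without and 165, 289 and 217 with a tumour (−1.53 ± 0.73, then −1.33). Antigen presentation genes, at a median of 0.11 (−0.06 without KO_tumor replicate 1 and 0.66 without KO_no_tumor replicate 3), had the same library highest, with H2-DMa at 187, 243 and 913 against 74.0, 151 and 257. KO_no_tumor replicate 3 is also the library rich in small nuclear RNAs.

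The tumour effect in KO was next set beside that in WT, for the same 15687 genes. The contrasts have no library in common, but all 12 libraries shared 1 estimate of the spread per gene. In WT 76 genes rose (0.484%) and 44 fell (0.28%), 120 in all (0.765%). That total was 18 without WT_no_tumor replicate 1, 17 without WT_no_tumor replicate 2, 60 without WT_no_tumor replicate 3, 15 without WT_tumor replicate 1, 11 without WT_tumor replicate 3 and 192 without KO_tumor replicate 1. Of the 76, 71 had a positive log2 fold change in KO (73 without KO_tumor replicate 1), and of the 44, 41 were negative (40). The medians were 0.65 in KO against 1.80 in WT for the first and −0.65 against −1.85 for the second. Along the WT direction, KO was the smaller in 74 of 76 and in 43 of 44, with genes of opposite sign counted as smaller. However, these genes were chosen by their WT values, which favours larger sizes in WT. The KO libraries also enter the spread behind the WT calls, so the choice favours genes with a small spread in KO. Separate KO groups are then more likely among them than among all genes, and the next counts are not independent of the choice. Without overlap and in the WT direction were 26 of the 76 in KO, against 7.92% of all genes, and 23 of the 44, against 10%. Across all genes Pearson's r between the effects was 0.191 and Spearman's rho 0.218, or 0.237 and 0.255 without KO_tumor replicate 1. Genes are not independent replicates.

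The test of the difference between genotypes called 0 genes by limma (0.0%, lowest adjusted p = 0.763), with 748 at an unadjusted p under 0.05 (4.77%). Library weights called 1, Col3a1 (limma adjusted p = 0.0322). The median standard error of that difference was 0.61 on the log2 scale, so that only large differences could pass. An effect called in WT and not in KO is therefore not shown to differ between them.

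The genes with the smallest p for that difference had opposite signs in the genotypes, with Cpxm1 as an exception under some settings. Choosing genes by that p favours opposite signs, so the signs are no separate result. The KO change of Col3a1, given above, was smaller than its standard error. Cish, a feedback inhibitor of cytokine and growth hormone receptors, was at 719, 489 and 509 without and 838, 734 and 905 with a tumour in KO (0.55 ± 0.25, then 0.53), with separate ranges. In WT it was at 633, 973 and 601 against 277, 294 and 358 (−1.22), and the difference was 1.77 ± 0.35 (limma adjusted p = 0.763). Ces1e, a carboxylesterase, was at 906, 919 and 887 against 2476, 1823 and 1597 in KO (1.09 ± 0.29, then 0.92) and at 933, 839 and 752 against 262, 677 and 498 in WT (−0.91). Angptl8, a liver-secreted inhibitor of lipoprotein lipase action, was at 403, 336 and 132 against 1275, 907 and 528 in KO (1.70 ± 0.44, then 1.40) and at −1.14 in WT. Cpxm1, a carboxypeptidase-like gene, was at most at 22.4 in the KO libraries and at 233, 184 and 193 in WT_tumor livers. Its log2 fold change was −0.44 in KO and 6.21 in WT, and in KO it turned to 0.40 without KO_tumor replicate 1, 0.35 with library weights and 0.56 with quantile normalization.

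**Figure D5:**
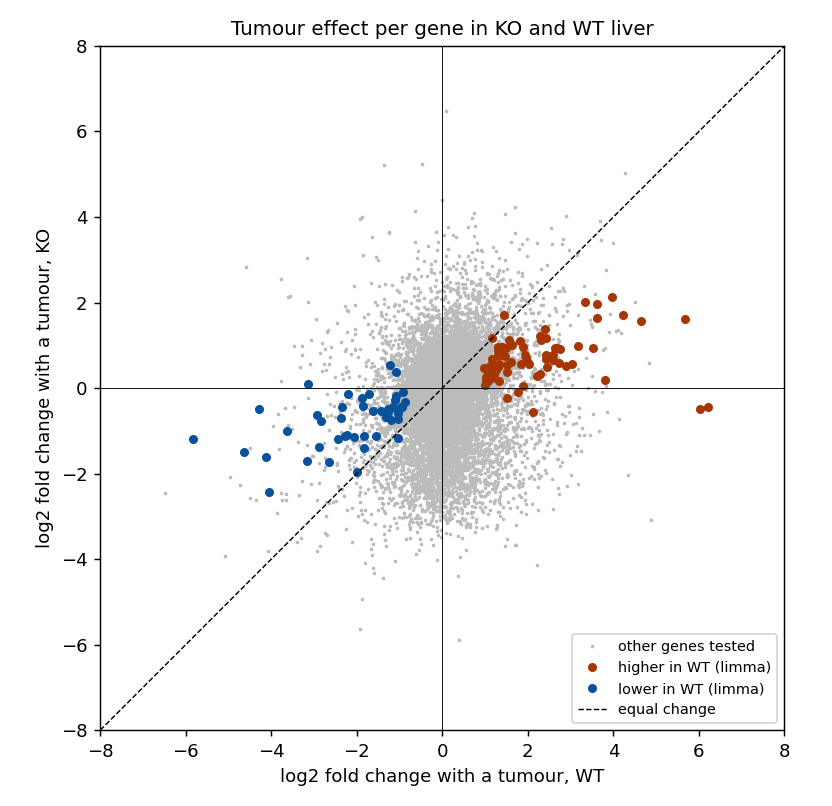
Log2 fold change with a tumour of each of the 15687 genes in WT (horizontal axis) and KO (vertical axis), with the 76 genes higher and 44 lower in WT by limma in colour and a dashed line of equal change. Of the coloured genes, 71 and 41 have the WT sign in KO. In 74 and 43 the change along the WT direction is smaller in KO, with genes of opposite sign counted as smaller.

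Weighting the libraries called 38 genes, as said above, and some of them belong to the groups described. Of the 28 higher (0.178% of all genes), 5 were among the 34 tested members of the ribosomal list and 4 among the 30 of the acute phase list. Of the 10 lower (0.0637% of all genes), 3 were among the 27 tested PPARα targets. The acute phase members were Itih3, Itih4, Steap4 and Fgl1, and the PPARα targets Cyp4a10, Acot4 and Acot1. Crp, Nfkbiz and Fgl1 were named after their values were seen. Socs3 (1.48, limma adjusted p = 0.0486), Tnfrsf1a (1.17, 0.0473), Dusp1 (2.09, 0.0473) and Klf10 (1.43, 0.00661) were also among the higher genes, and Cyp17a1 (−1.98, 0.00953) and Otc (−0.79, 0.0486) among the lower. This weighting rests mainly on KO_tumor replicate 3 among the tumour-bearing KO livers, and the calls are not found with equal weights.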

How the data were processed

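Liver RNA sequencing was measured in 12 libraries, 3 per group, from different mice per the labels. The deposited table holds a normalized signal per gene and library: the authors divided reads by a size factor per library, so values are neither counts nor logs. Reads were aligned with STAR 2.7.8a to mm39, with Partek and DESeq2 also named, per the submitters' processing notes. How reads were counted, with which annotation, strand setting and filters, is not stated in the labels or the notes. Depths were estimated from the steps between low values, of which 77.1% to 83.8% per library were whole reads within 0.01 read.

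limma 3.58.1 (R 4.3.3) was run on log2(value + 1) for genes that reached 10 in at least 3 of the 6 KO libraries (mean-variance trend, 12 libraries in 1 fit with a mean per group, two-sided, Benjamini-Hochberg adjustment over 15687 genes, threshold 0.05). The contrasts were tumour against none in KO, the same in WT, and their difference. On simulated data for the KO comparison (14945 genes, 50 changed per size), the test recovered 26%, 42.9%, 70% and 92% of log2 changes of 1, 2, 3 and 4, and called 5 of 14746 unchanged genes. Changes were placed only in genes above a set mean level. Simulated libraries had the same normal spread per gene, and none was shallow. The rates therefore do not cover low genes or the depth of KO_tumor replicate 1. Tables and figures were made with Python 3.11.15, pandas 2.3.3, numpy 2.4.6 and matplotlib 3.10.9. p-values measure the spread between these mice.

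The members and the 51 gene lists were chosen with earlier results of these data known. Named were 21 fixed genes, 10 genes per direction whose groups did not overlap and whose mean reached 50 (by smallest unadjusted p, since none passed, without unnamed gene models), up to 3 members per list with the smallest p and 1 with the highest mean, and up to 6 genes for the difference between genotypes. A list's level in a library is the median over its genes of the log2 value minus the gene's mean over 12 libraries. The filter, pseudocount, scaling, library weights, replicate block, samples in the fit and each library were varied in 25 alternative settings.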

Additional observations from a re-analysis of the deposited data

How the results depend on the processing

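The count of KO genes past the limma threshold, 0, became 1 with the 6 KO libraries fitted alone, 1 with the 5 KO libraries left without KO_tumor replicate 1 fitted alone (an alternative chosen after seeing the data), 38 with library weights and 0 to 1 over fits that left out 1 library. The count for the difference between genotypes, 0, became 1 with library weights and 0 to 1 with 1 library left out, where Hamp2 passed without WT_tumor replicate 2 (5.02, limma adjusted p = 0.000875). The WT count of 120 was 559 with weights, 204 without KO_tumor replicate 1 and KO_no_tumor replicate 3, and 11 to 192 with 1 library left out. The 2109 KO genes at an unadjusted p under 0.05 were 849 without those same 2 libraries, 1158 with the 5 KO libraries alone and 1047 to 3376 with 1 library left out. The cause of these shifts was not tested. Quantile normalization gave 976 higher and 1036 lower genes.

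The replicate block left the KO and difference counts at 0, with 2048 KO genes at an unadjusted p under 0.05 and 88 called in WT. Same-numbered KO libraries correlated at −0.02, 0.09 and −0.05 in their deviations, and differently numbered ones at −0.09 to 0.08. These are the replicate numbers of the sample titles, and the deposited column names number some KO_no_tumor libraries differently. By column name, KO_no_tumor replicate 2 and KO_tumor replicate 3 share a number, and they correlated at 0.06. With 3 libraries per group these values cannot decide whether the numbers pair the samples.

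Of 99 genes named, 87 kept the sign of the KO log2 fold change in all 25 alternatives, and 23 passed under at least 1 of them, all with weights. With 1 library left out, signs turned within −0.63 to 0.23 for Mtdh, −1.19 to 0.49 for Saa1, −0.39 to 1.14 for Hamp, −0.11 to 0.23 for Rxra, −0.01 to 0.52 for Srebf1, −0.24 to 0.20 for Me1, −0.85 to 0.15 for Cyp7a1, −0.71 to 2.18 for S100a8, −1.25 to 0.11 for Cd8a and −0.93 to 0.40 for Cpxm1, while Myh11 stayed positive at 0.49 to 2.77. With weights, Saa1 was at 1.02, Me1 at −0.088, Cyp7a1 at 0.029 and Cpxm1 at 0.35. With the 5 KO libraries alone, Saa1 was at 0.47, Hamp at −0.0024, Rxra at −0.014 and Cpxm1 at 0.40. Without KO_tumor replicate 1 and KO_no_tumor replicate 3, Saa1 was at 1.45, Srebf1 at −0.059, Myh11 at −0.41 and Cpxm1 at 0.72. Quantile normalization put Cpxm1 at 0.56 and Hsp90b1 at 0.0611.

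Of 50 list medians, 25 moved by more than the spread between replicates under some setting. Acute phase genes ranged from 0.62 to 1.18, PPARα targets from −0.91 to −0.42, ribosomal proteins from 0.62 to 1.11 and endothelial markers from 0.35 to 0.48. KO_tumor replicate 1 had the most tested genes without a read among the KO libraries, 2218 of 15687. Of 1245 genes lower at an unadjusted limma p under 0.05, 226 (18.2%) had no read in it. The part of depth in these was not tested.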
